A study of Mus musculus with 6 samples.

Results

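The genes described here are the nuclear genes for subunits and dedicated assembly factors of the mitochondrial respiratory chain. They were chosen by symbol: protein-coding genes of GENCODE mouse release M21 whose symbol begins with Nduf, Uqcr, Cox4 to Cox8 or Atp5, or is Sdha, Sdhb, Sdhc or Sdhd, and which appear in the table of counts for the whole series. The annotation holds 94 such genes, and 91 of the 17500 genes in that table are among them. Cox8b, Cox8c and a second gene named Atp5o were not in it. By complex, the 91 are 38 subunits and 8 assembly factors (the Ndufaf genes) of complex I, 4 genes of complex II, 8 of complex III, 16 of complex IV, 16 of complex V and the complex V accessory gene Atp5s. A filter on low counts left 90 genes for testing and removed Ndufa4l2.

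The libraries were bulk RNA-seq of long-term haematopoietic stem cells (LT-HSCs) from wild-type (WT) male C57/Bl6 mice of 22 to 24 months. The cells had been sorted as Lin-, CD48- and positive for Sca1, cKit and CD150. From the same sort came 5000 cells with the highest 10% of surface CD61 (integrin beta 3), called CD61High, and 5000 with the lowest 10%, called CD61Low. Each of 3 mice gave 1 library of each kind, although pools of cells are mentioned in the protocol. No group was treated, and no young animals are among the samples used here.

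The respiratory chain passes electrons from NADH (complex I) and succinate (complex II) through ubiquinone to complex III, by cytochrome c to complex IV and from there to oxygen. Complexes I, III and IV pump protons across the inner mitochondrial membrane, and complex V, the ATP synthase, uses the return flow to make ATP. Complexes I, III, IV and V also hold subunits encoded by mitochondrial DNA, so that nuclear and mitochondrial transcripts must both be made. Quiescent LT-HSCs are known to rely little on oxidative phosphorylation, which increases when they enter the cycle and differentiate.

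Many nuclear respiratory genes carry sites for the factors NRF1, GABP (also called NRF2) and YY1 next to their start, and the sequences are shown so that these letters can be seen in members of different complexes. RefSeq windows on GRCm38.p6, from 250 bases before to 50 bases after a start, were found for 73 of the 91 genes (78 windows). The NRF1 letters, GCGCA and GCGC with any 1 base (N) between them, stood in 20 of the 78 windows (25.6%), against 4.6% of all 32851 windows of that length. The GABP letters CCGGAAG stood in 18 (23.1% against 8.86%) and the YY1 letters AAGATGGCG in 8 (10.3% against 1.4%), all searched on both strands, and 39 (50%) held at least 1 of the 3 motifs, against 13.6% of all windows. These are matches of letters, and binding was not measured. The run GCGCATGCGC matches the NRF1 letters on both strands and was counted once. The 200 bases before the start are printed for 5 members, 5′ to 3′ on the strand of the gene, in lower case with the matches in capitals. No matches overlap in them. Some windows reach into annotated exons, that of Cox6a1 by at least 23 bases into Cox6a1 and at least 29 bases into Gm42903.
Ndufaf4: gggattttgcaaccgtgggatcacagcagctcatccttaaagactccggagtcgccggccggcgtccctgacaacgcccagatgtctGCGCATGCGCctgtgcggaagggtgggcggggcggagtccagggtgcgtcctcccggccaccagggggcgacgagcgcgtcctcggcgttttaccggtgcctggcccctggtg
Ndufs5: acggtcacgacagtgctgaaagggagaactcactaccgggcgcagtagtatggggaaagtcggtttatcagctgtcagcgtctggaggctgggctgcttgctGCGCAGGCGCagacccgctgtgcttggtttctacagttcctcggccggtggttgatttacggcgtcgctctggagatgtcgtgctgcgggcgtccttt
Uqcr11: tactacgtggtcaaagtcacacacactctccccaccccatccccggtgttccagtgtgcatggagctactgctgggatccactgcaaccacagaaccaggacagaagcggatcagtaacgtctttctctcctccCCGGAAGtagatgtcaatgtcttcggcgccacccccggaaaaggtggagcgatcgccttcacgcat
Cox6a1: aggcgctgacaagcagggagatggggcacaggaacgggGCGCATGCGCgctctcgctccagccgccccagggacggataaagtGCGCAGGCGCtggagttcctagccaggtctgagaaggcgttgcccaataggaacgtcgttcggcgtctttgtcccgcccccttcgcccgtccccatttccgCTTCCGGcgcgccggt
Atp5e: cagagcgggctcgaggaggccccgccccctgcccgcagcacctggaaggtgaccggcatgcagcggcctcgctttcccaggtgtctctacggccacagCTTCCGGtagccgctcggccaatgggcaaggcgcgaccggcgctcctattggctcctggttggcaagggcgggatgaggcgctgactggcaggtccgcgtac
The window of Ndufaf4 (chr4:24897883-24898082, plus strand) has an NRF1 match at position -113 from the start, and that of Ndufs5 (chr4:123718187-123718386, minus strand) has one at -98. Uqcr11 (chr10:80406822-80407021, minus strand) has a GABP match at -66, and Atp5e (chr2:174464102-174464301, minus strand) has one on the other strand at -102. Cox6a1 (chr5:115348959-115349158, minus strand) has NRF1 matches at -162 and -117 and a GABP match on the other strand at -16.

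Each library held 21354130 to 26398090 counts on genes. No LT-HSC marker of the 10 on the list was at 0 in any library, and their share of counts was 0.207% to 0.449% in CD61High against 0.137% to 0.626% in CD61Low. The lowest share of each gate was in mouse 2, while mice 1 and 3 had 0.435% and 0.449% in CD61High and 0.594% and 0.626% in CD61Low. With TMM, 5 of these 10 markers were lower in CD61High in 3 of 3 mice (50%, against 24.7% of all genes). Only 1 was higher in 3 of 3 mice (10%, against 20.6%). The median log2 difference of the 10 was -0.57, -0.02 and -0.73 in mice 1, 2 and 3 with TMM, or 0.25 in mouse 2 with library totals alone. Transcripts of other blood cells were also present, most of all in both libraries of mouse 2. The share of the 20 neutrophil markers was 0.0588% to 7.93% in CD61High against 0.242% to 12.7% in CD61Low, with the highest value of each gate in mouse 2. None of them was at 0 in any library, and 20 of 20 were lower in CD61High in 3 of 3 mice. The 10 erythroid markers took 0.0627% to 1.41% in CD61High and 0.107% to 2.69% in CD61Low (9 of 10 lower in 3 of 3 mice, none at 0), and the 10 monocyte and macrophage markers 0.0391% to 0.894% and 0.0559% to 1.41% (9 of 10, none at 0). B lineage markers (0.00504% to 0.0309% and 0.00607% to 0.0433%) had Igll1, Pax5 and Rag1 at 0 in some library, and T and NK cell markers (0.00898% to 0.0261% and 0.0112% to 0.0319%) had Cd3g, Cd8a and Il7r. Megakaryocyte and platelet markers were the larger share in CD61High (0.103% to 0.184% against 0.0323% to 0.109%; Gp1bb and Gp6 at 0 in some library). Markers of eosinophils, basophils and mast cells (0.00481% to 0.227% and 0.000971% to 0.238%) had Epx, Prss34, Ms4a2 and Il5ra at 0 in some library, and endothelial and stromal markers (0.0149% to 0.0295% and 0.0176% to 0.0297%) had Col3a1. The part of these cells in the results that follow was not tested, and in bulk samples fewer cells of a type and less RNA per cell cannot be told apart. Results are given per mouse and also without mouse 2, although the neutrophil markers also differed between the gates of mice 1 and 3 (median log2 difference -2.05 and -2.59).

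The 91 genes together took 1.42%, 1.26% and 1.33% of the counts on genes in CD61High of mice 1, 2 and 3, and 1.07%, 1.19% and 1.08% in CD61Low. The CD61High libraries were all above the CD61Low libraries. Levels were compared between genes per length, as TPM, transcripts scaled by length to the same sum in each library. Complex I subunits summed to 8797, 6417 and 8747 TPM in CD61High of mice 1, 2 and 3, against 6441, 5415 and 7022 TPM in CD61Low. Each mouse had the higher sum in CD61High, but the gates overlapped, because both libraries of mouse 2 were low.

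Complex V followed, with 6326, 4356 and 6471 TPM in CD61High and 4519.9, 3367 and 5063 TPM in CD61Low. Complex IV summed to 5103, 3899.6 and 4944 TPM in CD61High and 3877, 3708 and 4228 TPM in CD61Low. Complex III summed to 3065, 2373 and 3179 TPM against 2227, 1841 and 2512 TPM. The order of these sums was I, V, IV, III in 5 libraries, while in CD61Low of mouse 2 complex IV stood above complex V, which held only with all exons as length: with the longest transcript complex V had 4707 TPM there and complex IV 4077. The 4 genes of complex II summed to 1954, 1344 and 2041 TPM in CD61High and 1509.5, 953 and 1612 TPM in CD61Low. The 8 assembly factors summed to 473, 296 and 489 TPM in CD61High and 350.1, 206 and 407 TPM in CD61Low, the lowest sums of the 6 groups. A sum grows with the number of genes in it: the median member had 168 TPM in complex I, 35.8 among the assembly factors, 390.01 in complex II, 342 in complex III, 128 in complex IV and 187 in complex V. With the longest transcript as length in place of all exons, the sum of complex V was larger, at 6571 TPM as a mean of the 6 libraries in place of 5017.

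**Figure D1:**
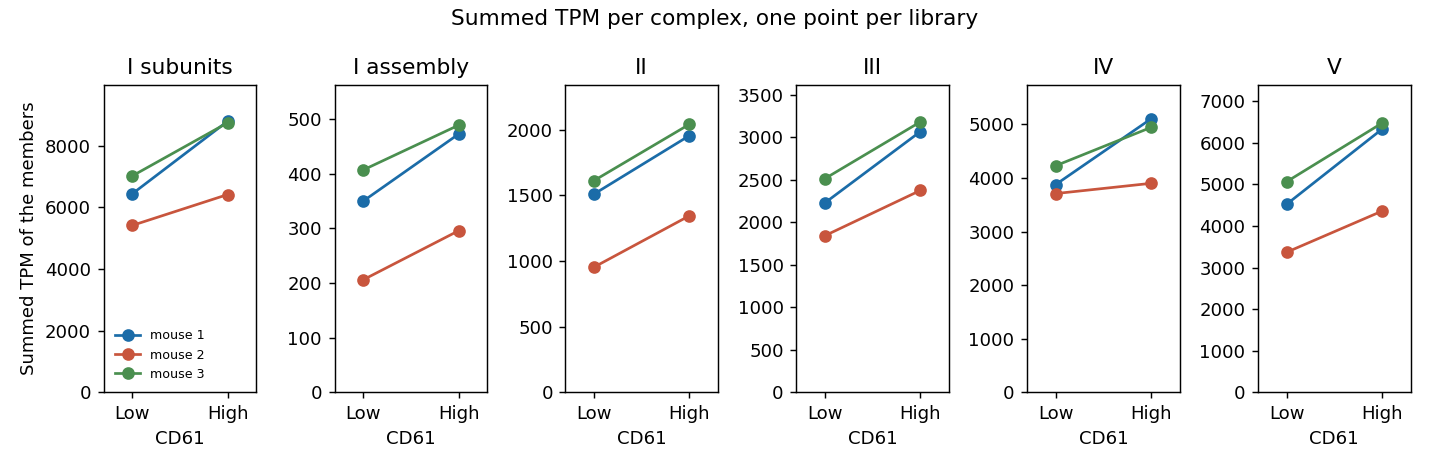
Summed TPM (vertical axis, from 0, own scale per panel) of the members of each complex in CD61Low and CD61High; points are libraries and lines join the libraries of a mouse. Each sum is higher in CD61High in each mouse, from 953 to 1344 TPM for complex II in mouse 2, but in mouse 2 complex IV took 0.152% of counts in CD61High against 0.172% in CD61Low, and with TMM scaling the median member of complexes I to V was lower in CD61High of mouse 2.

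The comparison of CD61High with CD61Low asks which transcripts go with surface CD61 in LT-HSCs of old mice. Without mouse as a block, edgeR's quasi-likelihood test called 0 of the 15610 genes at an adjusted p under 0.05, 0% in either direction, and 0 of the 90 respiratory genes. At an unadjusted p under 0.05 it had 555 genes higher in CD61High (3.56%) and 468 lower (3.00%). Among the respiratory genes 2 were higher and 0 lower at that level, which is near the background. Without a block DESeq2 called 129 genes higher (0.826%) and 108 lower (0.692%), limma voom called 0, and none was a respiratory gene.

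When the mouse number was added as a block, which compares the gates within mice (called blocked in what follows), 15 genes were called higher (0.0961%) and 25 lower (0.160%) by edgeR, again with no respiratory gene. At an unadjusted p under 0.05 the block gave 4 respiratory genes higher, against 8.01% of all genes, and 1 lower, against 12.8%. The 4 were Ndufaf4, Ndufa12, Uqcrc1 and Atp5s, and the 1 was Cox6a2. DESeq2 with the block, an alternative chosen after seeing the data, called 456 genes higher (2.92%) and 1110 lower (7.11%), of which 1 was a respiratory gene, Ndufaf4 (adjusted p = 0.0235). Limma voom with the block, chosen likewise, called 333 genes in either direction (2.13%) and no respiratory gene.

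The shared feature of the respiratory genes was their pattern over the mice. Differences are given as log2 CPM (counts of a gene scaled to a common library size) of CD61High minus CD61Low within a mouse, with TMM scaling and a prior count of 2. Of the 90 genes, 85 were higher in CD61High in mouse 1, against 7803 of all 15610 genes, and 82 in mouse 3, against 7523. In mouse 2 only 13 were higher, against 6991 of all genes. The pattern of higher in mice 1 and 3 and lower in mouse 2 was met by 68 of 90 (75.6%), against 14.2% of all genes. The median difference of the 90 genes was 0.40, -0.20 and 0.36 in mice 1, 2 and 3, where that of all genes was 0.00, -0.07 and -0.01.

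The sign in mouse 2 depended on the scaling: with library totals alone the median of the 90 genes turned to 0.07 there, while the median of all genes moved to 0.21. Relative to the median of all genes, the respiratory genes stood at -0.13 in mouse 2 with TMM. A change of scaling moves every gene of a mouse by the same amount, so this value cannot depend on it. With library totals alone 52 of the 90 were higher in CD61High in 3 of 3 mice, and with TMM 11 were (12.2%, against 20.6% of all genes). Relative log expression and upper-quartile factors gave 11 and 15. Of the 90, 6 had all 3 CD61High libraries above all 3 CD61Low libraries (6.67%, against 8.62% of all genes), and 0 had the reverse (against 5.71%). The 6 were Ndufaf1, Ndufaf2, Ndufaf4, Ndufaf5, Ndufa12 and Atp5s. This count also depended on the scaling: with library totals alone 31 of the 90 had CD61High above CD61Low without overlap (34.4%, against 8.93% of all genes), and 2 genes, Ndufaf2 and Ndufaf4, were in both sets. CPM values of genes, and statements on which libraries are highest, lowest or overlap, are with TMM in what follows unless library totals are named.

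The libraries of mouse 2 also set the spread within a gate. With TMM scaling, CD61Low of mouse 2 was the highest of the 3 CD61Low libraries for 81 of the 90 genes (90%), against 43.5% of all genes, and the highest of all 6 libraries for 65 (72.2%, against 31.8%). With library totals alone these were 63 genes (70%, against 26.2%) and 23 (25.6%, against 16.7%). By group, CD61Low of mouse 2 was the highest of 6 with TMM for 30 of 37 complex I subunits, 1 of 8 assembly factors, 2 of 4 genes of complex II, 7 of 8 of complex III, 12 of 16 of complex IV and 13 of 16 of complex V.

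Without mouse 2 and with the block, a fit on 4 libraries that leaves 1 residual degree of freedom, edgeR called 287 genes higher (1.85%) and 455 lower (2.93%). None was a respiratory gene, and the lowest adjusted p among them was 0.0524, for Atp5mpl. At an unadjusted p under 0.05, 45 of the 90 were higher, against 11.6% of all genes, and 0 were lower, against 14.7%. The marker differences were larger in this fit than in the blocked fit on all mice for neutrophils (median -2.35 with 15 of 20 called lower, against -1.92 with 0 called). In the same fit 3 of 10 monocyte and macrophage, 4 of 10 erythroid and 5 of 10 LT-HSC markers were called lower, and 1 LT-HSC marker was called higher. The part of these cells in the result was not tested. The 45 respiratory genes were 17 of 37 complex I subunits, 2 of 8 assembly factors, 2 of 4 genes of complex II, 5 of 8 of complex III, 9 of 16 of complex IV and 10 of 16 of complex V. Without mouse 1 or without mouse 3 the block gave 0 and 7 genes in all, and no respiratory gene.

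**Figure D2:**
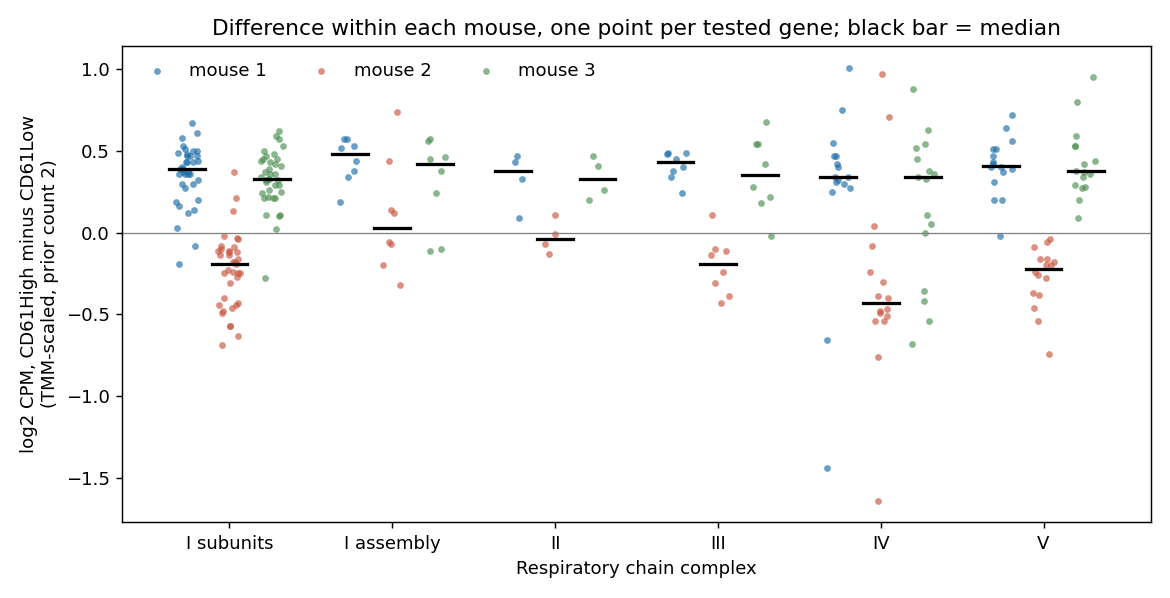
Difference in log2 CPM between CD61High and CD61Low (vertical axis, TMM-scaled, prior count 2) within mice 1 (blue), 2 (red) and 3 (green), with 1 point per tested gene and a black bar at the median of each group. Medians lie between 0.33 and 0.48 in mice 1 and 3 and between -0.43 and 0.03 in mouse 2, where with library totals alone they lie between -0.16 and 0.30.

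Complex I subunits had a median log2 fold change of 0.14 in unblocked edgeR (range -0.26 to 0.39 over 37 genes), 0.16 blocked and 0.34 blocked on mice 1 and 3 alone, where all genes had -0.05, -0.02 and -0.03. Of the 37, 35 were higher in CD61High in mouse 1 and 36 in mouse 3, and 34 were lower in mouse 2 with TMM but 12 with library totals alone. Ndufa12 (ENSMUSG00000020022.17, GRCm38 chromosome 10, 94198720 to 94221443), an accessory subunit of the matrix arm, had 82.4, 66.9 and 78.8 CPM in CD61High of mice 1, 2 and 3 and 54.1, 61.1 and 59.2 CPM in CD61Low. With TMM it was the only complex I subunit whose gates did not overlap, and with library totals alone its gates overlapped while those of 16 other subunits, Ndufa9 among them, did not. In edgeR the log2 fold change of Ndufa12 was 0.39 (SE 0.15) at an adjusted p of 0.732, or 0.216 blocked.

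Ndufa9, an accessory subunit near the quinone site (chromosome 6, 126821721 to 126849136), had 148, 145 and 153 CPM in CD61High and 103, 149 and 99.9 CPM in CD61Low. The CD61High libraries lay close together, and CD61Low of mouse 2 lay among them. Without the block its log2 fold change was 0.35 (SE 0.19, edgeR adjusted p = 0.809), and with the block and without mouse 2 it was 0.56 (SE 0.12, adjusted p = 0.0617). Ndufab1, the mitochondrial acyl carrier protein (chromosome 7, 122085403 to 122101886), had 23.3, 30.7 and 29.8 CPM in CD61High and 21.05, 23.8 and 21.0001 CPM in CD61Low. It was higher in CD61High in each mouse, by 0.14, 0.37 and 0.50 on the log2 scale, although CD61High of mouse 1 lay just below CD61Low of mouse 2. Its log2 fold change was 0.35 (SE 0.19, edgeR adjusted p = 0.803). A pseudogene, Ndufab1-ps, shares part of its sequence, so that some of its reads may not be counted.

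The complex I subunit with the highest level per length was Ndufa1, of the membrane arm, at 498 TPM as a mean of the 6 libraries. It had 63.5, 98.2 and 55.6 CPM in CD61High and 47.1, 146 and 39.9 CPM in CD61Low. Both libraries of mouse 2 stood above the other 4, and the difference within mice was 0.43, -0.57 and 0.48 with TMM. Ndufb2 was the lowest of the tested subunits, at 6.46 TPM, with 10.6, 13.95 and 12.9 CPM in CD61High and 12.1, 12.03 and 8.53 CPM in CD61Low. Its differences, -0.19, 0.21 and 0.59, ran against those of most subunits in mice 1 and 2.

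The median difference of the 37 complex I subunits was 0.39, -0.19 and 0.33 in mice 1, 2 and 3 with TMM, and 0.08 in mouse 2 with library totals alone. In mouse 2 they ranged from -0.69 to 0.37 with TMM. The lowest value there was that of Ndufb3, a membrane arm subunit, at 107 CPM in CD61Low and 66.5 CPM in CD61High.

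Of the 8 assembly factors, which help to build complex I and are not part of the finished enzyme, 4 were higher in CD61High in 3 of 3 mice without overlap of the libraries with TMM (50%, against 8.62% of all genes), and 3 with library totals alone (37.5%, against 8.93%). Their median log2 fold change was 0.30 unblocked, 0.31 blocked and 0.36 blocked on mice 1 and 3 alone. With TMM their median difference was 0.48, 0.03 and 0.42 in mice 1, 2 and 3, and in mouse 2 it was not below 0, unlike the -0.19 of the complex I subunits. There, 4 of the 8 were higher and 4 lower. With library totals alone neither median was below 0 in mouse 2, at 0.30 for the assembly factors and 0.08 for the complex I subunits. The difference between assembly factors and subunits was not tested.

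Ndufaf4 (ENSMUSG00000028261.13, chromosome 4, 24898083 to 24905001, plus strand), whose promoter with an NRF1 match is printed above, acts early in assembly together with Ndufaf3. It had 39.4, 34.5 and 42.2 CPM in CD61High and 27.2, 20.6 and 28.4 CPM in CD61Low. Every CD61High library was above every CD61Low library, and within mice the log2 difference was 0.53, 0.74 and 0.57. Ndufaf4 had a log2 fold change of 0.61 (SE 0.19; edgeR adjusted p = 0.683), the smallest p of the 90 genes, and 0.61 (SE 0.15, adjusted p = 0.0988) with the block. Its partner Ndufaf3 had 26.03, 32.2 and 18.8 CPM in CD61High against 19.2, 40.1 and 20.3 CPM in CD61Low, with overlapping gates and a log2 fold change of -0.05 (SE 0.37).

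Ndufaf2 is a relative of Ndufa12 that holds its place while complex I is built (chromosome 13, 108002715 to 108158623). It had 18.5, 16.4 and 18.4 CPM in CD61High and 12.4, 15.1 and 13.4 CPM in CD61Low, without overlap. Its log2 fold change was 0.38 (SE 0.20, edgeR adjusted p = 0.788), but 65.7% of its exon sequence overlaps B230220B15Rik, and without strand the reads of the pair cannot be told apart. Ndufaf1 had 42.7, 40.5 and 52.6 CPM against 37.4, 36.8 and 35.7 CPM, and Ndufaf5 had 13.6, 11.9 and 12.4 CPM against 9.48, 8.76 and 10.5 CPM. The gates of both genes did not overlap with TMM but did with library totals alone, and neither was called (edgeR adjusted p = 0.793 and 0.796). The other 3, Ndufaf6, Ndufaf7 and Ndufaf8, had overlapping gates.

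Complex II, succinate dehydrogenase, has no subunit from mitochondrial DNA and is also an enzyme of the TCA cycle. Its median log2 fold change was 0.20 unblocked, 0.22 blocked and 0.34 blocked on mice 1 and 3 alone, and its 4 genes spanned 0.13 to 0.23. Sdha, the flavoprotein (chromosome 13, 74322254 to 74350280), had 708, 634 and 734 CPM in CD61High and 666, 589 and 638 CPM in CD61Low. It was higher in CD61High in each mouse, by 0.09, 0.11 and 0.20, and the gates overlapped. Sdha had a log2 fold change of 0.13 (SE 0.14, edgeR adjusted p = 0.936).

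Sdhb, the iron-sulphur subunit (chromosome 4, 140961203 to 140979193), had 201, 238 and 189 CPM in CD61High and 149.7, 251 and 143 CPM in CD61Low. Sdhc, a membrane anchor (chromosome 1, 171127165 to 171150603), had 127, 112 and 116 CPM against 101, 113 and 97.4 CPM. Sdhd, the other anchor (chromosome 9, 50596357 to 50603812), had 298, 314 and 277 CPM against 215, 343 and 200.2 CPM. In all 3 of these genes the gates overlapped through CD61Low of mouse 2 with TMM, but not those of Sdhb and Sdhd with library totals alone, and the difference in mouse 2 was -0.07, -0.01 and -0.13 with TMM but above 0 with library totals alone. Their log2 fold changes were 0.21 (SE 0.26), 0.19 (SE 0.13) and 0.23 (SE 0.24), with edgeR adjusted p of 0.940, 0.867 and 0.931.

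Complex III, which hands electrons from ubiquinol to cytochrome c, had a median log2 fold change of 0.11 unblocked (range -0.04 to 0.35 over 8 genes), 0.16 blocked and 0.31 blocked on mice 1 and 3 alone. Uqcrc1, a core protein on the matrix side (chromosome 9, 108936633 to 108949623), had 583, 687 and 561 CPM in CD61High and 415, 636 and 385 CPM in CD61Low. With TMM it was the 1 gene of the complex that was higher in CD61High in 3 of 3 mice, by 0.49, 0.11 and 0.54, and both libraries of mouse 2 were high. With library totals alone 5 of the 8 genes were higher in 3 of 3 mice, against 4352 of all 15610 genes. The log2 fold change of Uqcrc1 was 0.35 (SE 0.24, edgeR adjusted p = 0.863), or 0.38 (SE 0.15, adjusted p = 0.221) with the block.

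Uqcrb, at the quinone site (chromosome 13, 66900617 to 66905378), had 109, 116 and 119 CPM in CD61High and 77.7, 124 and 82.3 CPM in CD61Low. Uqcrc2, the other core protein (chromosome 7, 120635176 to 120659524), had 177, 171 and 157 CPM against 136, 185 and 135 CPM. In both, CD61Low of mouse 2 was the highest of the 6 libraries with TMM and the other CD61Low libraries were the lowest, whereas with library totals alone all 3 CD61Low libraries lay below the CD61High libraries. Uqcr11, at 464 TPM the member with the highest level with all exons as length, had 102, 114 and 90.5 CPM in CD61High and 74.8, 126 and 79.9 CPM in CD61Low. With the longest transcript as length Uqcrc1 (350 to 666 TPM) stood above Uqcr11 (282 to 463 TPM) in every library. Uqcrq, the lowest at 128 TPM, had 79.3, 96.3 and 74.2 CPM against 56.9, 130.2 and 46.4 CPM, and its difference ranged from 0.68 in mouse 3 to -0.43 in mouse 2 with TMM. The edgeR adjusted p of Uqcrb, Uqcrc2, Uqcr11 and Uqcrq ranged from 0.882 for Uqcrb to 0.969 for Uqcrq.

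Complex IV, cytochrome c oxidase, had a median of -0.01 unblocked and 0.10 blocked, the lowest of the 5 complexes in these fits, and of 0.36 blocked on mice 1 and 3 alone, where complexes I, II and III had 0.34, 0.34 and 0.31. Its median was 0.34, -0.43 and 0.34 in mice 1, 2 and 3 with TMM, and in mouse 2 it was also below 0 with library totals alone, at -0.16, where all genes had 0.21. Without CD61Low of mouse 2 the median over the 2 remaining CD61Low libraries was 0.49. Cox8a (chromosome 19, 7215153 to 7217616) had the highest level with all exons as length, at 952 TPM. It had 188, 207 and 175 CPM in CD61High and 156, 294 and 162 CPM in CD61Low. CD61Low of mouse 2 was the highest of the 6 libraries, and the log2 fold change was -0.10 (SE 0.28, edgeR adjusted p = 0.950). With the longest transcript as length Cox4i1 (1042 to 1457 TPM) stood above Cox8a (726 to 938 TPM) in every library.

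Cox7b, a small membrane subunit (chromosome X, 106015700 to 106022450), had 82.7, 96.5 and 77.7 CPM in CD61High and 65.3, 93.7 and 61.7 CPM in CD61Low. With TMM it was 1 of 2 complex IV genes higher in CD61High in 3 of 3 mice, the other being Cox4i2. With library totals alone 3 of the 16 were, against 4352 of all 15610 genes. The gates of Cox7b overlapped only through mouse 2 with TMM and not at all with library totals alone. Cox7b had a log2 fold change of 0.22 (SE 0.21, edgeR adjusted p = 0.926).

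Several complex IV subunits exist as paralogs with different tissue use, and the main form led in every library. Cox4i1, the common form of the regulatory subunit 4, had 407, 412 and 325 CPM in CD61High and 322, 599 and 324 CPM in CD61Low (648 to 945 TPM). Cox4i2, the form known from lung and low oxygen, had 3.87, 1.35 and 3.21 CPM against 2.26, 0.792 and 3.09 CPM (1.69 to 17.7 TPM). Cox4i2 was low in both libraries of mouse 2, where Cox4i1 had its highest values with TMM.

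Cox6a1, whose promoter is printed above, had 175, 224 and 149 CPM in CD61High and 133, 326 and 118 CPM in CD61Low, with a log2 fold change of -0.07 (SE 0.43). Its heart and muscle form Cox6a2 had 0.387, 2.44 and 0 CPM against 0.657, 7.77 and 0.0372 CPM. Both libraries of mouse 2 were above the other 4 for Cox6a2, and it was the 1 respiratory gene lower in CD61High in 3 of 3 mice (1.11%, against 24.7% of all genes). In mouse 3 that rested on 0 counts in CD61High against 1 in CD61Low, below the floor of 3 counts. The log2 fold change of Cox6a2 was -1.57 (SE 2.00, edgeR adjusted p = 0.940), or -1.35 (SE 0.53, adjusted p = 0.220) with the block.

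Cox6b1 had 168, 185 and 162 CPM in CD61High and 135, 256 and 118 CPM in CD61Low. Cox6b2, known as a testis form, was clearly above the counting floor, at 16.95, 18.4 and 16.7 CPM against 8.35, 21.8 and 9.01 CPM. The CD61High libraries of Cox6b2 lay close together, while with TMM its CD61Low libraries fell on both sides of them: mice 1 and 3 gave log2 differences of 1.01 and 0.88, and mouse 2 gave -0.24 with TMM. The log2 fold change of Cox6b2 was 0.41 (SE 0.42, edgeR adjusted p = 0.928), and with the block and without mouse 2 it was 0.94 (SE 0.21, adjusted p = 0.0685).

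Cox7a2 had 92.5, 122 and 82.9 CPM in CD61High and 69.1, 171 and 63.9 CPM in CD61Low. Cox7a2l, known as a factor for supercomplexes of complexes III and IV, which were not measured here, had 85.1, 65.5 and 66.6 CPM against 71.7, 69.5 and 85.4 CPM. It did not follow the common pattern, since its difference was 0.25, -0.08 and -0.36 in mice 1, 2 and 3, and its log2 fold change was -0.06 (SE 0.17, edgeR adjusted p = 0.952). The muscle form Cox7a1 had 0.559, 0.436 and 0.258 CPM against 0.438, 0.792 and 0.372 CPM, and the testis form Cox7b2 had 0.258, 0.174 and 0.480 CPM against 0.839, 0.0495 and 0.819 CPM. Both lay near the floor of 3 counts, 0.114 to 0.140 CPM, and their gates overlapped.

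**Figure D3:**
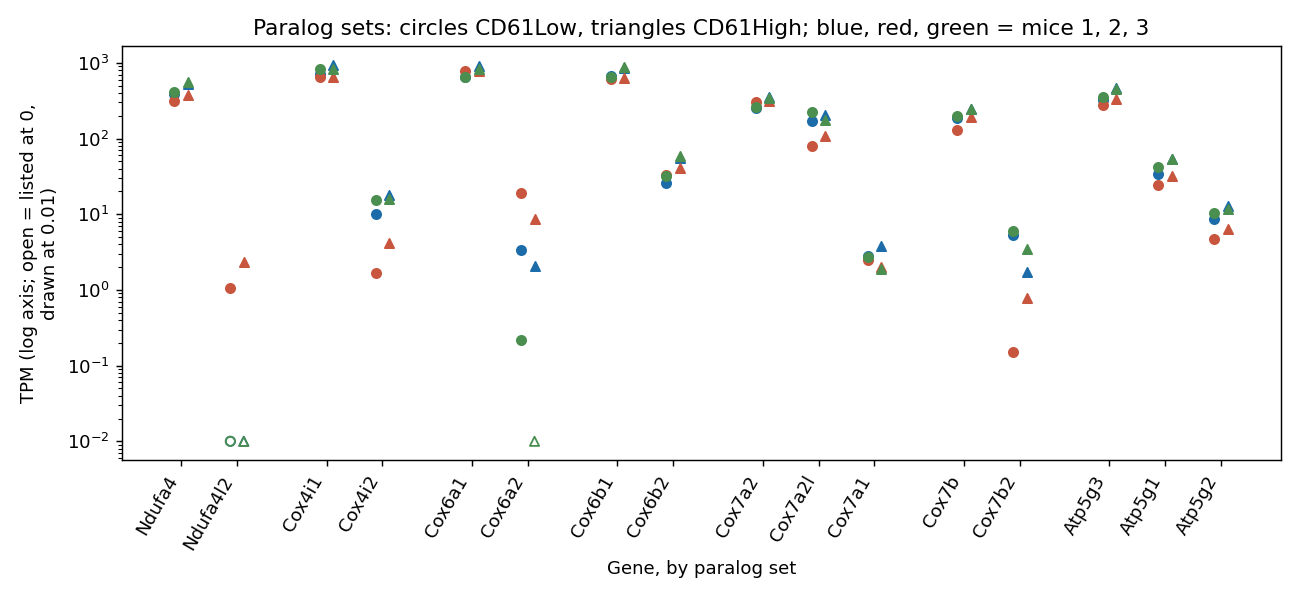
TPM (vertical log axis) of paralog sets in CD61Low (circles) and CD61High (triangles) of mice 1 (blue), 2 (red) and 3 (green); open symbols at the bottom are libraries listed at 0. The common form stands above its paralogs in every library, as Cox4i1 at 648 to 945 TPM above Cox4i2 at 1.69 to 17.7 TPM.

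Ndufa4 is counted with complex I by its symbol but is known as a subunit of complex IV. It had 199.9, 214 and 199.8 CPM in CD61High and 156, 257 and 145 CPM in CD61Low, with a log2 fold change of 0.14 (SE 0.25, edgeR adjusted p = 0.940). The close agreement of its CD61High libraries and the wide spread of its CD61Low libraries were like those of Cox6b1. Ndufa4l2, a form known to be induced by low oxygen, was at 0 in both gates of mice 1 and 3 while mouse 2 gave 1.05 CPM in its CD61High library against 0.693 CPM in CD61Low.

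Complex V had a median log2 fold change of 0.14 unblocked (range -0.06 to 0.32 over 16 genes), 0.20 blocked and 0.38 blocked on mice 1 and 3 alone. It was the most uniform complex in sign: 15 of 16 genes were higher in mouse 1 and 16 of 16 in mouse 3, and 16 of 16 were lower in mouse 2 with TMM but only 6 with library totals alone. The catalytic subunit Atp5b (ENSMUSG00000025393.12, chromosome 10, 128083273 to 128090391) had the highest level of the 91 genes, at 1239.9 TPM. It had 1833, 1906 and 1781 CPM in CD61High and 1365, 1989 and 1328 CPM in CD61Low, so that with TMM only CD61Low of mouse 2 reached the CD61High libraries, and with library totals alone none did. Its log2 fold change was 0.24 (SE 0.21, edgeR adjusted p = 0.917), or 0.41 (SE 0.11, adjusted p = 0.102) with the block and without mouse 2.

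Atp5a1, which alternates with the beta subunit in the catalytic head, had 1380.4, 1235 and 1315 CPM in CD61High and 1069, 1272 and 1075 CPM in CD61Low. With all exons as length the 2 head subunits had like values, 1234 and 1239.9 TPM. This depended on the length used: with the longest transcript Atp5b was higher in every library (1412 to 2729 TPM, against 647 to 1444 for Atp5a1). The log2 fold change of Atp5a1 was 0.20 (SE 0.16, edgeR adjusted p = 0.884). Atp5mpl, a small proteolipid of the membrane part (chromosome 12, 111961375 to 111966977), had 95.9, 96.4 and 90.2 CPM in CD61High and 58.03, 108 and 59.9 CPM in CD61Low. Its CD61High libraries differed little, and with TMM its CD61Low libraries fell on both sides of them, while with library totals alone they all lay below. Its log2 fold change was 0.32 (SE 0.27, edgeR adjusted p = 0.897), and 0.64 (SE 0.12, adjusted p = 0.0524) with the block and without mouse 2.

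The ring subunit c is made from 3 genes whose mature proteins are identical. Atp5g3 led with 276 to 470.1 TPM, and had 285, 296 and 253 CPM in CD61High and 206, 359 and 195 CPM in CD61Low. Atp5g1 had 24.3 to 54.5 TPM, and 74.3, 63.5 and 67.8 CPM against 47.6, 70.98 and 51.98 CPM. Atp5g2 had 4.66 to 12.8 TPM, and 5.94, 4.36 and 5.06 CPM against 4.16, 4.65 and 4.39 CPM. The 3 genes had the same order in every library, and each was higher in CD61High in mice 1 and 3 and lower in mouse 2 with TMM. Their log2 fold changes were 0.13 (SE 0.27), 0.27 (SE 0.19) and 0.22 (SE 0.28), with edgeR adjusted p of 0.940, 0.874 and 0.940.

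Atp5l, subunit g, had the lowest level of the tested genes at 0.492 TPM. That value cannot be read as low expression, because 84.9% of its 50-base stretches also occur in other genes or pseudogenes and reads that map to several places were not counted. For Atp5o, the peripheral stalk subunit, 50.3% of the stretches are shared, in part with the second gene named Atp5o. Other genes, that one among them, overlap 47.9% of its exon sequence, so its level cannot be read as low expression either. In Ndufa13 and Ndufb6 30.0% and 39.0% of the exon sequence overlaps another gene. The accessory gene Atp5s (chromosome 12, 69724950 to 69744660) had 35.1, 31.7 and 30.9 CPM in CD61High and 29.4, 18.3 and 23.8 CPM in CD61Low. Its gates did not overlap with TMM but did with library totals alone, and unlike the 16 subunits it was higher in CD61High of mouse 2 with TMM, by 0.79. The log2 fold change was 0.45 (SE 0.22, edgeR adjusted p = 0.761), or 0.47 (SE 0.18, adjusted p = 0.203) with the block.

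**Figure D4:**
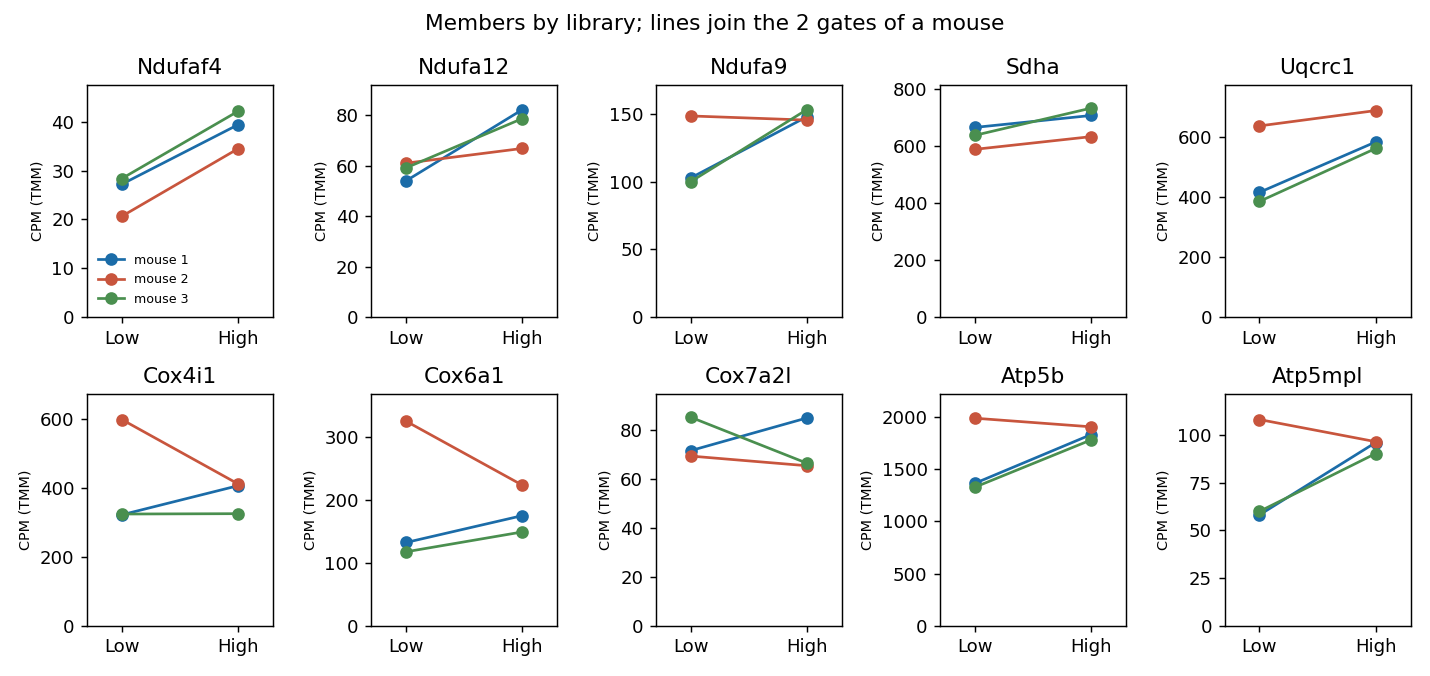
CPM (vertical axis, from 0, TMM-scaled) of 10 members in CD61Low and CD61High; lines join the libraries of mice 1 (blue), 2 (red) and 3 (green). Ndufaf4 and Ndufa12 are higher in CD61High in each mouse, whereas Atp5b and Cox6a1 are higher in mice 1 and 3 and lower in mouse 2, where CD61Low has 1989 and 326 CPM. With library totals alone the median member was higher in CD61High of mouse 2. So was Atp5b (1766 CPM against 1526 in CD61Low), but Cox6a1 was still lower there (207 against 250).

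Subunits left out by the symbol rule had values like those of the members. Cyc1, cytochrome c1 of complex III, had 191, 253 and 205 CPM in CD61High and 145, 283 and 139 CPM in CD61Low. Usmg5, a small complex V subunit, had 36.3, 39.1 and 32.7 CPM against 25.5, 44.2 and 24.2 CPM. With Cycs and Atpif1, 4 of 4 were higher in mice 1 and 3 and lower in mouse 2 with TMM, and with library totals alone 1 of the 4 was lower there. None was called (edgeR adjusted p = 0.940 for Cyc1 and for Usmg5).

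Of the 13 subunits encoded by mitochondrial DNA, 8 passed the filter, and their median log2 fold change was -0.35, below that of each nuclear complex. Their median differences were 0.29, -0.81 and -0.34 in mice 1, 2 and 3, so that they were lower in CD61High in mouse 3, where the nuclear subunits were higher. In mouse 2 all 8 were lower with TMM and with library totals alone. Mt-Nd6, the complex I subunit on the light strand, had 56.7, 55.5 and 39.99 CPM in CD61High and 58.7, 122 and 51.5 CPM in CD61Low, and its log2 fold change was -0.61 (SE 0.37, edgeR adjusted p = 0.834). Mt-Nd3 had 9.08, 9.24 and 2.99 CPM against 8.06, 15.5 and 7.82 CPM, at -0.56 (SE 0.53, adjusted p = 0.926). The 13 took 0.754%, 0.527% and 0.429% of counts in CD61High and 0.587%, 0.724% and 0.492% in CD61Low. Mt-Nd4l, mt-Co2, mt-Co3, mt-Atp6 and mt-Atp8 had 0 to a few counts in every library. Reads that map to several places were not counted, so these genes are not read here as unexpressed.

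Of 37 tested assembly factors for complexes I to V outside the Ndufaf genes, edgeR called none. With TMM 18 were higher in CD61High in 3 of 3 mice (48.6%, against 20.6% of all genes). Their median was 0.16, with 0.25, 0.04 and 0.24 in mice 1, 2 and 3. Atpaf2, which assembles the head of complex V, had 56.9, 54.5 and 58.8 CPM in CD61High and 40.01, 44.9 and 40.2 CPM in CD61Low, without overlap. Cox18, which inserts a complex IV subunit into the membrane, had 31.7, 23.5 and 28.9 CPM against 17.9, 17.4 and 20.6 CPM, also without overlap. Their log2 fold changes were 0.44 (SE 0.13) and 0.59 (SE 0.20), with edgeR adjusted p of 0.676 and 0.693, or 0.153 and 0.139 with the block.

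The 14 enzymes of the TCA cycle, which feed the chain with NADH and succinate, had a median of 0.23 and median differences of 0.26, 0.07 and 0.35 in mice 1, 2 and 3. With TMM 7 of 14 were higher in CD61High in 3 of 3 mice (50%, against 20.6%). Idh2, the mitochondrial NADP-linked isocitrate dehydrogenase, had 329.7, 273 and 361 CPM in CD61High and 185, 166 and 197 CPM in CD61Low. Idh3a, a subunit of the NAD-linked enzyme, had 235, 199 and 257 CPM against 151, 154 and 151 CPM. In both, every CD61High library was above every CD61Low library. The log2 fold changes were 0.82 (SE 0.16) and 0.60 (SE 0.15) at edgeR adjusted p of 0.652 each, and neither was called with the block (0.0566 and 0.0898). With the block and without mouse 2 both rose, by 0.84 (SE 0.11, adjusted p = 0.0261) and 0.69 (SE 0.11, adjusted p = 0.0420).

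Among 18 regulators of mitochondrial transcription and biogenesis the median was 0.03, near that of all genes. Ppargc1a, the coactivator PGC-1alpha, had 2.15, 1.35 and 2.22 CPM in CD61High and 9.30, 2.62 and 7.67 CPM in CD61Low, lower in each mouse without overlap. Its log2 fold change was -1.77 (SE 0.55, edgeR adjusted p = 0.676), or -1.64 (SE 0.35, adjusted p = 0.0786) with the block, and with the block and without mouse 2 it fell by 1.96 (SE 0.32, adjusted p = 0.0402). Lrpprc, which stabilises mitochondrial mRNA, had 109.7, 101 and 124 CPM against 102, 79.8 and 101 CPM, at 0.24 (SE 0.16, adjusted p = 0.863).

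**Figure D5:**
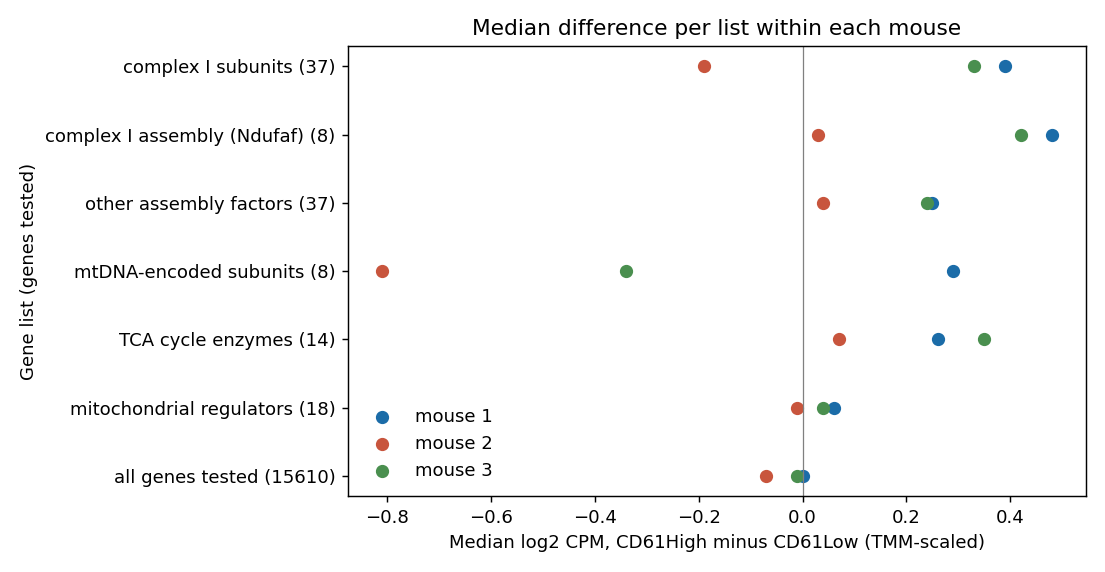
Median difference in log2 CPM between CD61High and CD61Low (horizontal axis, TMM-scaled) of gene lists (vertical axis, number of genes tested in brackets) in mice 1 (blue), 2 (red) and 3 (green). In mouse 2 the complex I subunits lie at -0.19, or at 0.08 with library totals alone, the assembly factor lists lie at 0.03 and 0.04, and the mitochondrially encoded subunits lie at -0.81, or -0.54 with library totals alone.

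The length of the longest transcript and the difference in mouse 2 had a Spearman rho of 0.35 across the 90 members, against 0.01 in mouse 1 and 0.19 in mouse 3. Over 13122 coding genes rho was -0.25, 0.05 and -0.13 in mice 1, 2 and 3. These are descriptions across genes, which share their libraries and are not independent replicates.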

How the data were processed

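The authors deposited raw read counts for each gene, in 1 table per library and 1 table for the whole series; 0 values differed between them. STAR 2.7, MultiQC and edgeR are named per the submitters' processing notes. Neither build nor annotation is given in the sources used here; all 55450 gene identifiers are those of GENCODE M21 on GRCm38. Unstranded counts were used, since 49.9% to 50.0% of stranded counts fell on the first strand. Unmapped (4.36% to 10.9%), multimapping (10.0% to 15.6%), outside-gene (2.88% to 4.21%) and ambiguous (3.55% to 4.37%) reads stayed out of library sizes and tests. Reads carried no molecular identifiers, so floors (3 counts) cover counting error only.

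The test was the quasi-likelihood F-test of edgeR 4.0.16 (R 4.3.3), with TMM factors, robust dispersions and filterByExpr on the 2 gates. It was two-sided, p-values were adjusted by Benjamini-Hochberg across all 15610 genes that passed the filter, and genes with an adjusted p under 0.05 were called. Standard errors were derived from the F statistic. No block was used in this test, because no source states mouse as a covariate. Libraries with the same number come from the same mouse per the titles, and deviations from group means correlated at 0.236, 0.806 and 0.761 within mice 1, 2 and 3, against -0.823 to 0.374 between mice. The block was therefore fitted as well. Without the block, p-values measure the spread of the libraries within each gate and leave the pairing out. With the block they measure the spread of the differences within mice, over the mice that a fit kept. TPM came from the counts and the union of exons. Alternatives were other scaling factors, no filter, DESeq2 1.42.0, limma 3.58.1, and leaving out libraries or mice. The edgeR test was tried on simulated data.

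The members and gene lists were chosen with earlier results of these data known. Named genes are all of complex II; in complexes I, III, IV and V the 3 members with the smallest unadjusted p and those with the highest and lowest TPM; 2 assembly factors by p; all paralog sets; and 2 genes per other list by p. Further members with non-overlapping gates, and Ndufaf3, Ndufb3, Hk3 and Aldoa, were named after their values were seen. The 16 lists matched 219 of 219 symbols. Promoter windows are RefSeq's.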

Additional observations from a re-analysis of the deposited data

How the results depend on the processing

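The 22 alternatives gave 791 values for the 36 named members tested, and 790 kept their side of the threshold. A change of sign was counted as a reversal only where either fit called the gene, and no value met this. Fold changes near 0 may therefore have changed sign among the 790. Ndufaf4 passed under DESeq2 with the replicate block (log2 fold change 0.59, adjusted p = 0.0235). That made 1 respiratory gene called, where every other alternative gave 0. The number of all genes called was 0 without the block and 40 with the mouse as a replicate block, 88 and 8 with the block and relative log expression or upper-quartile factors, 237 under DESeq2 without the block, 1566 and 333 under DESeq2 and limma voom with it, and 133 without mouse 2 and without the block; the cause was not tested. The alternatives with the block and other factors, the 2 other tools with the block and that without mouse 2 and no block were chosen after seeing the data. Leaving out single libraries without the block, or a mouse with the block, gave 0 to 742 genes (7 without mouse 3, 742 without mouse 2) and 0 respiratory genes in each case. Leaving out 1 library leaves 2 in its gate. Over the same settings the medians ranged from 0.00 to 0.41 for complex I subunits, 0.20 to 0.36 for assembly factors, 0.09 to 0.38 for complex II, -0.03 to 0.45 for complex III, -0.19 to 0.49 for complex IV and -0.04 to 0.44 for complex V, with the highest value without CD61Low of mouse 2 for the subunits of each complex and without CD61High of mouse 2 for the assembly factors. With the replicate block alone the 6 medians were 0.16, 0.31, 0.22, 0.16, 0.10 and 0.20, and the block changed no call of a respiratory gene in edgeR. Of 135 alternative medians, 1 moved by more than its spread (complex IV at 0.49). The sum of complex V was 6571 TPM with the longest transcript as length and 5017 with all exons. Depth limited Ndufa4l2, Cox6a2, Cox7a1 and Cox7b2, which lay near or below the floor of 3 counts in some library.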

Other observations

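Glycolysis and low-oxygen genes, the other side of energy metabolism, had medians near that of all genes. The 18 glycolysis genes had a median log2 fold change of -0.02 and median differences of 0.01, -0.15 and 0.07 in mice 1, 2 and 3, with 0.12 in mouse 2 with library totals alone. Of the 18, with TMM 5 were higher in CD61High in 3 of 3 mice (27.8%, against 20.6% of all genes) and 5 lower (27.8%, against 24.7%), so that the list did not move as one. The 5 higher genes include the Aldoa entry ENSMUSG00000114515.2, which had only 10 to 35 counts per library. Its values are not read here as the level of that enzyme. Pfkp, a phosphofructokinase, had 247, 194 and 243 CPM in CD61High and 167, 133 and 179 CPM in CD61Low, and its log2 fold change was 0.51 (SE 0.18, edgeR adjusted p = 0.715). Slc2a3, the glucose transporter GLUT3, had 276, 440.4 and 262 CPM against 476, 596 and 425 CPM, at -0.61 (SE 0.26, adjusted p = 0.752). With the block and without mouse 2, Slc2a3 fell by 0.76 (SE 0.11, adjusted p = 0.0334) and Hk3, a hexokinase, by 1.53 (SE 0.12, adjusted p = 0.0162). Hk3 had 59.2, 341 and 43.5 CPM in CD61High and 169, 565 and 125 CPM in CD61Low, highest in both libraries of mouse 2, which also had the largest share of neutrophil markers (7.93% and 12.7% of counts); the part of those cells in it was not tested.

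The 13 targets of HIF-1 and kinases of pyruvate dehydrogenase had a median of -0.03 and median differences of -0.06, -0.17 and 0.04 in mice 1, 2 and 3, with 0.11 in mouse 2 with library totals alone. Car9, a carbonic anhydrase, had 18.2, 13.8 and 15.7 CPM in CD61High and 8.90, 8.81 and 11.99 CPM in CD61Low, without overlap with TMM, at 0.68 (SE 0.25, edgeR adjusted p = 0.721). Pdk3, which inhibits pyruvate dehydrogenase, had 203, 190.2 and 217 CPM against 160.1, 159 and 172 CPM, also without overlap with TMM, at 0.31 (SE 0.13, adjusted p = 0.752).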
